A study of Mus musculus with 24 samples.

Results

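Deep-layer excitatory neurons of the mouse cortex were described in single-nucleus RNA-seq of 12 cortical libraries, 6 from Pdgfb ret/ret mice (mutants) and 6 from Pdgfb ret/wt mice (controls). The members were chosen by measured UMI counts, as nuclei with more than 500 and fewer than 7000 genes, less than 20% mitochondrial UMIs (unique molecular identifiers, which count captured transcripts) and at least 3000 UMIs, in which Slc17a7 had at least 2 UMIs, Foxp2 and Hs3st4 together had at least 4 and more than Cux2, Gad1 and Gad2 together had at most 1, Mog, Mag and Mobp together had at most 2, and Csf1r had none. This gave 6557 nuclei, 3585 from mutants and 2972 from controls, out of 17154 Slc17a7 nuclei, 34457 cortical nuclei with at least 3000 UMIs and 204925 nuclei within the limits on genes and mitochondrial share in the 24 libraries of the series. The other 12 libraries came from deep brain regions, and 4504 of their nuclei met the same rule but were not members.

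Both genotypes were on the B6.Pdgfbtm3Cbet strain and both carry the ret allele, which lacks the retention motif that holds secreted PDGF-B near the endothelial cell that makes it. Loss of the motif on both alleles leaves vessels short of pericytes, and the mutants develop vessel calcifications in deep brain regions, while the cortical regions sampled here were described as free of them. The mice were 4 months and 7 days to 5 months and 18 days old by the labels, all mutants were female, and 5 of the 6 controls were female. The cortical dissection held cerebral cortex together with hippocampus by the study's methods. Each library was made from nuclei of 1 mouse.

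Glutamatergic neurons of the deep cortical layers send axons out of their own column. Layer 6 corticothalamic neurons project to the thalamus and carry Foxp2, Tle4, Syt6 and Zfpm2, layer 6b neurons are remnants of the subplate and carry Ccn2 and Nxph4, and other neurons of layers 5 and 6 project to other cortical areas or to subcortical targets. Slc17a7 encodes the vesicular glutamate transporter VGLUT1, Hs3st4 a heparan sulfate sulfotransferase, and Cux2 a transcription factor of upper-layer neurons. The mature neuron makes some of its own cholesterol but takes much of it from astrocytes as lipoprotein, and its immediate early genes are transcribed within minutes of synaptic activity.

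The libraries were unequal. Members per library ranged from 154 to 1694, and 3 libraries (mutants 5 and 6 and control 5) held 1636, 978 and 1694, while no other held more than 343. Summed UMIs over the members of a library ran from 3469554 to 22391983, and library totals ran from 23625232 to 95605387. On the first principal component, which took 34.1% of the variance of the summed profiles, mice 5 and 6 of both genotypes lay between 13.3 and 18.6 and mice 1 to 4 between -15.5 and 0.21. Mice 5 and 6 were also the youngest by label, and control 6 was the only male. Genotypes were balanced over this split, so the values below are given within it where a result turns on it. Sex genes matched the labels in all 12 libraries, and 19 member barcodes occurred in more than 1 library, with at most 3 shared by a pair.

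The genes of the rule set the members' levels and are given as a description only. The median member held 5 to 7 UMIs of Slc17a7 by library, 12 to 25 of Hs3st4, 0 to 1 of Foxp2 and 0 of Cux2. At the threshold, 424 members had a Foxp2 and Hs3st4 sum of exactly 4, and 499 nuclei that met every other condition had 3. Another 373 nuclei reached the sum but had at least as much Cux2, 669 failed the limit on Gad1 and Gad2, and 366 that on Mog, Mag and Mobp. A UMI of Hs3st4 was also found in 36.5% of upper-layer nuclei and in 37.6% of 12652 nuclei of at least 3000 UMIs without Slc17a7, against 99.0% of members, so a lone UMI of Hs3st4 did not mark a nucleus as deep-layer. Median UMIs per nucleus ran over the libraries from 11170 to 23348 in members, from 13869 to 26250 in upper-layer nuclei and from 5732 to 8332 in nuclei without Slc17a7.

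Markers that the rule did not use were compared with 2337 upper-layer nuclei of the same libraries (same limits, Cux2 at least 4 and more than Foxp2 and Hs3st4 together). By the rule the members fell into 3268 nuclei with UMIs of both Foxp2 and Hs3st4, 3223 with Hs3st4 and no Foxp2, and 66 with Foxp2 alone. The nuclei with both made up 42.7 to 60.9% of the members of a library, with mutants at 47.4 to 60.9% and controls at 42.7 to 53.4%.

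The corticothalamic markers named here were concentrated in the nuclei with both genes. Syt6, a synaptotagmin, averaged 90.6 counts per 1000000 UMIs (CPM, mean of 12 libraries) there, 2.26 CPM in the Hs3st4-only nuclei and 0.8 CPM in upper-layer nuclei. Tle4, a co-repressor, averaged 406, 115 and 46.1 CPM in the same order, and Zfpm2, a zinc-finger cofactor, 1083, 334 and 126 CPM. Fezf2, the transcription factor of subcortically projecting neurons, averaged 42.2, 20.8 and 1.8 CPM. Thus these markers were higher in both groups than in upper-layer nuclei, and highest in the nuclei with both genes. The label of corticothalamic neurons for those nuclei rests here on Syt6, Tle4 and Zfpm2, out of 9 markers listed for that type.

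The Hs3st4-only nuclei were more mixed. Rorb, a transcription factor best known from layer 4, averaged 326 CPM there, against 119 in the nuclei with both genes and 141 in upper-layer nuclei. Il1rapl2, a synaptic adhesion protein, averaged 544 against 265 and 85.2 CPM. Rasgrf2, an exchange factor of upper-layer neurons, averaged 98.8 against 35.3 and 310 CPM, and Cux1 averaged 196 against 84.3 and 352 CPM. Of 7 hippocampal and subicular markers, Prox1, a transcription factor of dentate granule neurons, averaged 12.8 CPM in the Hs3st4-only nuclei, 4.1 CPM in the nuclei with both genes and 35.9 CPM in all nuclei within the limits. The CA1 markers were also higher in the Hs3st4-only nuclei than in the nuclei with both genes, and there they exceeded their level in all nuclei, with Fibcd1 at 10.6, 3.01 and 6.05 CPM and Spink8 at 6.27, 1.79 and 3.34 CPM in the same order. Zbtb20, a zinc-finger gene of hippocampal pyramidal neurons and astrocytes, averaged 597 CPM in the Hs3st4-only nuclei against 144 CPM in the nuclei with both genes. The dissection held hippocampus, and the number of hippocampal nuclei among the members was not estimated. Of 3980 genes at 50 CPM or more in the higher of the 2 groups, 622 were higher in the nuclei with both genes in all 12 libraries, with Syt6, the collagen gene Col5a1 (78.1 against 8.99 CPM) and Arhgap25 (72.9 against 8.97 CPM) at the top, and 500 were higher in the Hs3st4-only nuclei, led by Zfp536 (63.1 against 13.1 CPM), Cntnap5c (210.2 against 42.5 CPM) and Ankfn1 (71.3 against 15.1 CPM). These lists follow in part from the split on Foxp2 and were not tested.

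**Figure D1:**
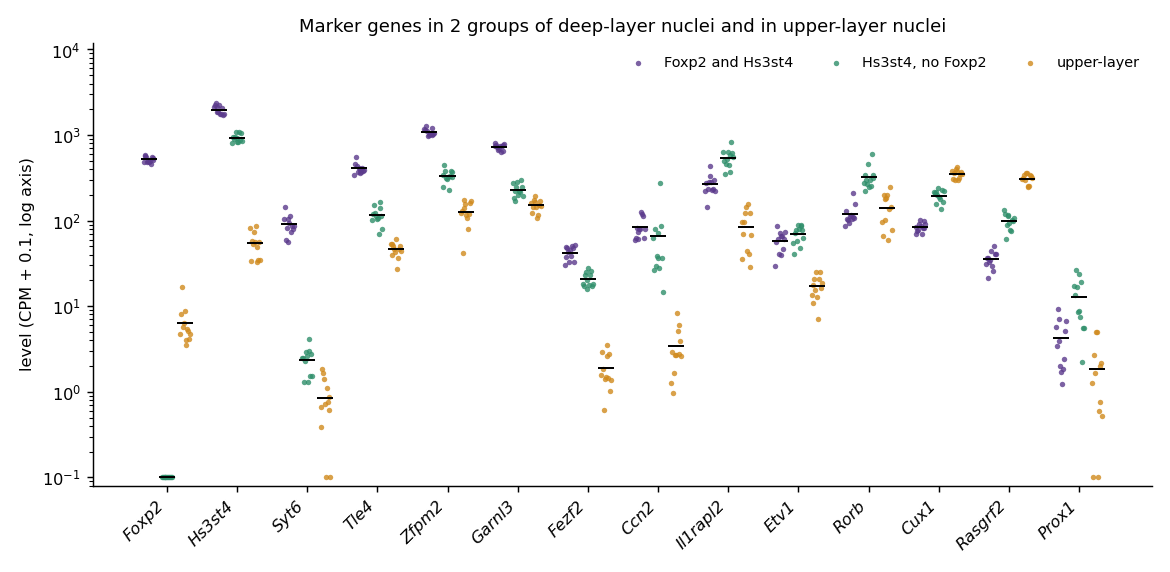
Mean level of 14 marker genes in each of the 12 cortical libraries (points; CPM + 0.1, log axis) in deep-layer nuclei with Foxp2 and Hs3st4 (purple), with Hs3st4 and no Foxp2 (green) and in upper-layer nuclei (orange), with black bars for the mean of the libraries. Syt6 lies near 90.6 CPM in the purple group and near 2.26 CPM in the green group, while Rorb and Il1rapl2 are highest in the green group.

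Against upper-layer nuclei, 704 of 3963 genes at 50 CPM or more in the higher type were higher in the members in all 12 libraries and 613 were lower, a description that the rule largely fixes. The genes with the largest ratio were Ccn2, a matricellular protein of layer 6b (73.6 ± 46.8 CPM, SD, n = 12, against 3.31 ± 2.14), the axon guidance ligand Sema3e (126 ± 24.2 against 10.5 ± 4.42), the kainate receptor subunit Grik3 (259.6 ± 49.6 against 22.2 ± 6.62), Thsd7b (397 ± 47.2 against 50.3 ± 17.9) and the actin-binding protein gene Rai14 (69.5 ± 9.85 against 7.78 ± 1.87). Bcl11b, which encodes the CTIP2 factor of subcortical projection neurons, was at 109 ± 19.2 against 16.1 ± 3.37 CPM. The rest of the 10 were Rell1 (55.4 against 8.38 CPM), Plcxd3 (132 against 23.3), the adhesion protein gene Cntnap4 (124 against 19.6) and the neurexin ligand gene Nxph1 (94.9 against 17.9). On the other side stood Stard8 (6.88 ± 1.42 against 72.0 ± 11.3 CPM), the guanylate cyclase subunit Gucy1a1 (14.8 ± 3.20 against 76.9 ± 16.0), Rasgrf2 (68.4 ± 12.4 against 309.9 ± 40.4) and Enpp2, which encodes autotaxin (72.7 ± 14.1 against 299 ± 48.8), and Prag1, Trpc6, Ccbe1, B230216N24Rik, Igfn1 and Evc2 were at 12.8 to 26.8 against 53.7 to 126 CPM. Each of these genes had the same direction in all 12 libraries.

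The first question for genotype was how large a part of the glutamatergic nuclei the members were. In controls 1 to 6 they made up 41.7, 32.0, 35.9, 37.7, 38.5 and 38.9% of Slc17a7 nuclei, and in mutants 1 to 6 they made up 33.9, 40.6, 41.5, 39.6, 37.8 and 40.5%. The groups overlapped along nearly their whole range. The means were 37.5% ± 3.27 (SD, n = 6) and 39.0% ± 2.77 (SD, n = 6), a difference of 1.52 percentage points with an SE of 1.75 (p = 0.418, two-sided exact permutation test over 924 splits, whose smallest possible p is 0.00216). A share among captured nuclei does not give the number of neurons in the tissue.

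Depth per nucleus was compared in the same way, since fixed UMI thresholds act on it. The median UMIs per member were 18891 ± 4348 in mutants and 17432 ± 3493 in controls (SD, n = 6 each), and the difference of 1459 did not pass the exact permutation test (p = 0.526). Within mice 1 to 4 the mutants were deeper by 3386 UMIs (exact permutation test, p = 0.0286, the smallest this split allows, n = 4 each), and without mutants 5 and 6 and control 5 they were deeper by 2887.2 UMIs (exact permutation test, p = 0.0317, n = 4 against 5). Gene values below were scaled for library size, and a version with each nucleus thinned to 3000 UMIs is given where it bears on them.

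**Figure D2:**
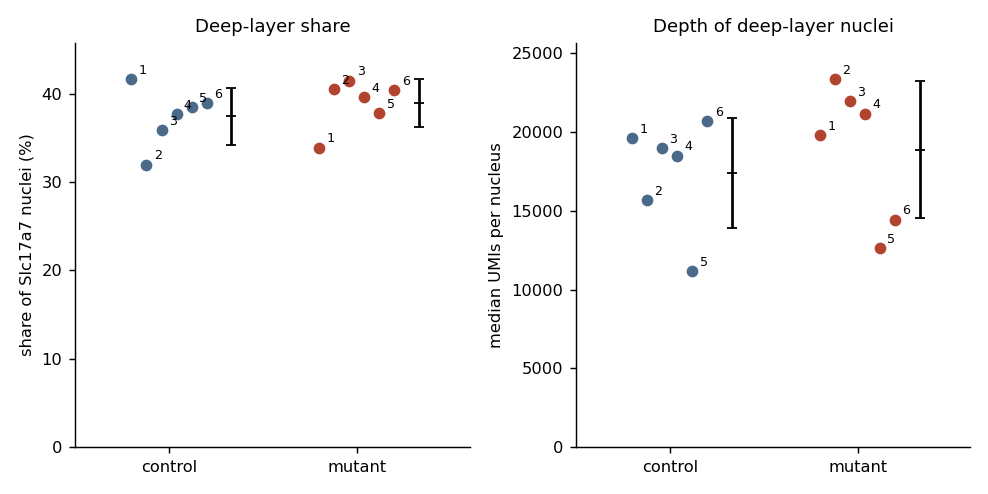
Left, deep-layer nuclei as a share of Slc17a7 nuclei (%); right, median UMIs per deep-layer nucleus. Each point is 1 mouse with its replicate number (controls blue, mutants red), and the black bar with error bar is the mean ± SD of 6 mice. Controls lie at 32.0 to 41.7% and mutants at 33.9 to 41.5%, and mice 5 and 6 of the mutants and control 5 are the shallowest at 11170 to 14446 UMIs.

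Genotypes were compared on the members' counts summed per mouse. Of 13745 genes tested with edgeR's quasi-likelihood test, none was higher and 1 was lower in mutants at a Benjamini-Hochberg adjusted p under 0.05 (0.00728% of genes tested). At an unadjusted p under 0.05 there were 301 higher (2.19%) and 328 lower (2.39%), 4.58% or 629 together. Over the alternatives that number ran from 289 (nuclei thinned to 3000 UMIs, 9197 genes tested) to 1455 (same-numbered mice as a block). It was 1190 with age as a block, 1132 with a term for mice 5 and 6 and 1126 without control 5. DESeq2 called none higher and 4 lower, among them Mfge8, Slc38a3 and Scd2. The 95% interval of the fold change lay within a 2-fold change in either direction for 96.7% of genes tested and within 1.5-fold for 78.3%, and for the 9653 genes at 10 CPM or more the shares were 99.7% and 94.2%. Log2 fold changes (mutant minus control) are given below as estimate ± SE of the edgeR fit, and their median SE was 0.13.

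The gene that fell was Mfge8 (chr7:79133768-79149060, GRCm38), which encodes milk fat globule EGF factor 8, a secreted bridge between exposed phosphatidylserine and integrins of phagocytes. The lowest, median and highest control were at 3.85, 5.39 and 7.26 CPM (scaled by edgeR over the genes tested), and the mutants at 1.41, 2.14 and 2.49 CPM. All 6 mutants lay below all 6 controls, as for 16 of the genes tested (0.116%), and 31 (0.226%) did not overlap in either direction. The log2 fold change was -1.43 ± 0.21 (SE; 95% interval -1.86 to -0.99; adjusted p = 0.0488 from an unadjusted p of 3.55e-06, edgeR). It was -1.56 ± 0.26 (SE) within mice 1 to 4 and -1.15 ± 0.32 within mice 5 and 6, and -1.38 ± 0.20 with a term for that split (adjusted p = 0.0358). The call was lost in 11 of 12 fits that left out 1 mouse (adjusted p 0.0222 to 0.317), and was kept only without control 5. It was also lost with age as a block (adjusted p = 0.107, edgeR) and with a term for mice 1 to 3 against 4 to 6 (0.0560). The same held without the highest doublet scores (0.911) and at 5000 UMIs per nucleus or more (0.156), and 21 of 27 alternatives in all did not call it. Among the 27, the setting of at least 50 nuclei per library left out no library and repeats the main fit. With nuclei thinned to 3000 UMIs Mfge8 had too few counts to be tested.

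The members were not where Mfge8 was highest. In all nuclei within the limits it averaged 35.2 ± 7.67 CPM in controls and 15.6 ± 5.23 CPM in mutants (SD, n = 6), in the barcodes outside those limits 33.6 ± 9.81 and 7.64 ± 2.04 CPM, and in upper-layer nuclei 6.44 ± 3.27 and 2.04 ± 1.48 CPM. The mutant mean was lower in each. The test of a different genotype effect in deep-layer and upper-layer nuclei gave a log2 difference of -0.048 ± 0.38 with a 95% interval of -0.84 to 0.74 (adjusted p = 1.00, edgeR). Among marker lists of other cells, every gene had a lower mutant median only in the mural and fibroblast lists. The mural list (Pdgfrb, Vtn, Rgs5 and Atp13a5) summed to 2.41 to 6.17 CPM in mutant and 5.53 to 10.5 CPM in control members. The fibroblast list (Dcn, at -0.94 ± 0.37, Col1a2 and Slc6a13) summed to 5.64 to 17.3 and 8.44 to 29.7 CPM. Over all nuclei the fibroblast list summed to 11.84 to 29.96 CPM, a range that control members overlapped. Median sums were also lower in mutant members for endothelial (2.99 against 3.48 CPM), astrocyte without Slc1a2 (31.09 against 32.43) and microglial markers (44.51 against 44.96). They were higher for interneuron, oligodendrocyte and oligodendrocyte precursor markers. The part of RNA from other cells in the Mfge8 value was not tested.

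Genes 2 to 10 on the lower side by p did not pass the adjusted threshold in edgeR (adjusted p 0.482 to 0.950) and are given as values. Slc38a3, a glutamine transporter, was at 9.56, 14.2 and 17.5 CPM in the lowest, median and highest control and 6.45, 8.30 and 10.4 CPM in the mutants, a log2 fold change of -0.79 ± 0.16 with a 95% interval of -1.12 to -0.46. Of the mutants, 1 lay within the control range. Scd2, a stearoyl-CoA desaturase, was at 115, 123 and 138 CPM in controls and 86.9, 100.1 and 106 CPM in mutants, a log2 fold change of -0.35 ± 0.071 with a 95% interval of -0.50 to -0.20, with no overlap. Others were the sterol genes Msmo1, Cyp51 and Sqle, described below, and Dennd3 (-0.69 ± 0.17), Psrc1 (-0.58 ± 0.14) and the receptor tyrosine kinase gene Kit (-0.56 ± 0.14).

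On the higher side no gene passed, and the 10 with the smallest p all had an adjusted p of 0.950. Ccdc88c, a regulator of Wnt signalling, was at 35.2, 40.4 and 43.5 CPM in controls and 43.4, 53.7 and 61.0 CPM in mutants, a log2 fold change of 0.37 ± 0.091. Rai14, one of the genes that set the members apart from upper-layer nuclei, was at 53.5, 61.0 and 71.9 CPM in controls and 69.1, 78.2 and 83.5 CPM in mutants, a log2 fold change of 0.31 ± 0.078 with a 95% interval of 0.15 to 0.48. In each, 1 mutant lay within the control range. Ryr2, the calcium release channel of the endoplasmic reticulum, was at 844, 957 and 1014 CPM in controls and 1043, 1094 and 1198 CPM in mutants, a log2 fold change of 0.24 ± 0.067 with a 95% interval of 0.10 to 0.38, and Syn3, a synapsin, at 93.0, 107 and 113 CPM in controls and 114, 127 and 151 CPM in mutants, a log2 fold change of 0.30 ± 0.084, both with no overlap. The remaining 6 were Plekha7, E130304I02Rik, Utp25, 2010300C02Rik, Smpd4 and BC024063, with log2 fold changes of 0.27 to 0.57. Of the 20 genes ranked here, 11 did not overlap between the groups, which follows from how they were ranked.

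The small differences were ordered by gene length along the genome. Of 3064 genes tested that span less than 10 kb, 73.0% had an estimate lower in mutants (median log2 fold change -0.084), against 55.0% of 6163 genes of 10 to 50 kb (-0.013), 35.9% of 3506 genes of 50 to 200 kb (0.040) and 22.6% of 1003 genes of 200 kb or more (0.090). Genes of at least 200 kb took 41.9 to 46.4% of the members' UMIs in mutants and 40.4 to 44.5% in controls, and genes under 10 kb 7.67 to 9.26% and 7.85 to 10.7%. The share lower was 71.9% and 20.4% for the shortest and longest class in upper-layer nuclei, 72.7% and 20.8% within mice 1 to 4, and 55.5% and 32.1% within mice 5 and 6. The part of this gradient in the list values that follow was not tested, and the median span is given for the lists whose values are described at length.

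A set of 21 gene lists by function was read against these backgrounds, and no gene in any of them was called at the adjusted threshold (the smallest adjusted p was 0.840, for Msmo1, edgeR). The lists stood at a median log2 fold change of -0.33 (neuropeptides) to 0.15 (mitochondrially encoded genes), with -0.0057 over all genes tested. Apart from the list of 162 genes tested near Pdgfb, given below, the lists with the most members at an unadjusted p under 0.05 were cholesterol synthesis (10 of 18, all lower), immediate early and activity-induced genes (9 of 23, all lower), voltage-gated channels (5 of 46, all higher) and glutamate receptors (4 of 23, all higher), against 2.19% of all genes on the higher and 2.39% on the lower side.

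**Figure D3:**
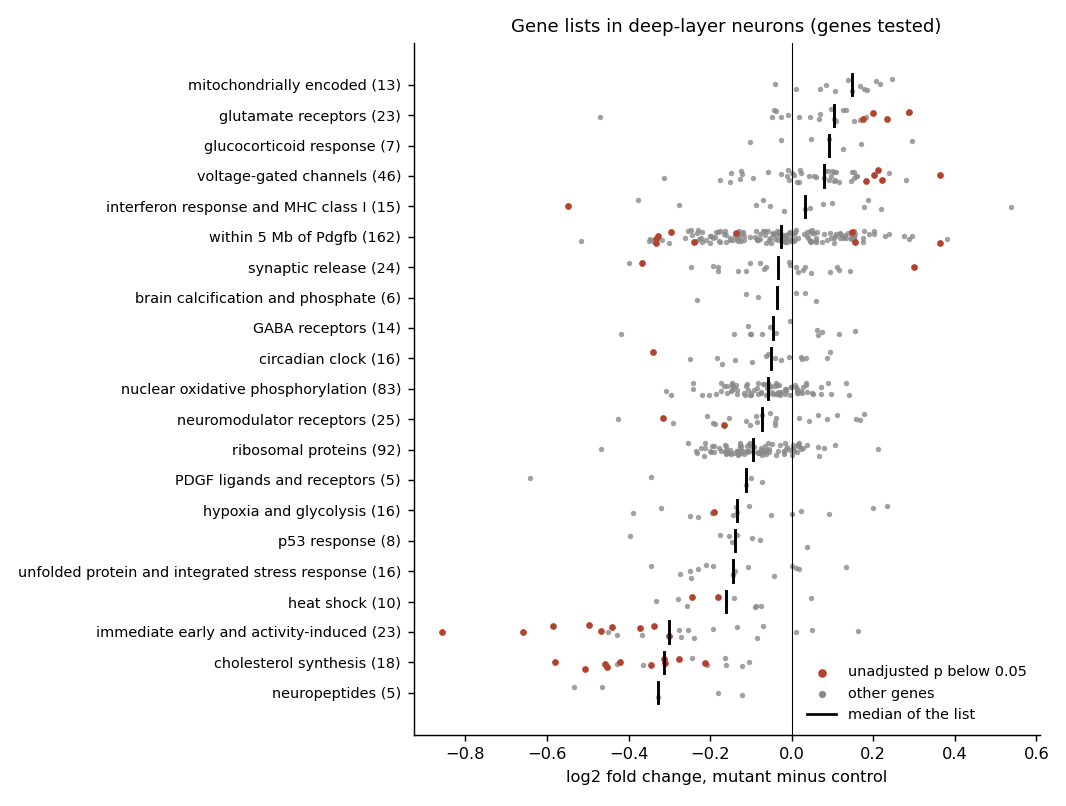
Log2 fold change (mutant minus control) of each tested gene of 21 lists in deep-layer neurons, with the number of genes tested in parentheses. Red points have an unadjusted p under 0.05, grey points do not, and the black bar is the median of the list. The cholesterol synthesis genes all lie left of 0 around a median of -0.31, and the glutamate receptor and voltage-gated channel genes lie mostly right of it.

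Cholesterol synthesis was the list with the most genes at an unadjusted p under 0.05. All 18 genes tested had an estimate lower in mutants, against 51.7% of all genes, with a median log2 fold change of -0.31 and a median span of 20.8 kb, and 10 had an unadjusted p under 0.05, against 2.39% of genes in that direction. None passed over all genes tested. The median stayed between -0.35 and -0.25 in every alternative computed. With nuclei thinned to 3000 UMIs, 16 of 17 genes tested were lower, against 50.7% of all genes in that version. The median was -0.35 within mice 1 to 4 (17 of 18 lower, against 49.7% of all genes) and -0.32 within mice 5 and 6 (18 of 18, against 50.7%).

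In the early mevalonate steps, the isomerase gene Idi1 was at 17.5, 22.1 and 28.8 CPM in the lowest, median and highest control and 11.3, 14.8 and 22.5 CPM in the mutants, a log2 fold change of -0.51 ± 0.16 with a 95% interval of -0.85 to -0.16, and Fdps, which makes farnesyl diphosphate, was at 13.4, 16.0 and 22.4 CPM in controls and 9.98, 11.9 and 17.2 CPM in mutants, a log2 fold change of -0.42 ± 0.15. Hmgcs1 and Mvd, which act beside them, were at -0.24 ± 0.14 and -0.37 ± 0.19. Idi1 and Fdps overlapped between genotypes, with the control mice spread widely.

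The squalene steps follow. Fdft1, squalene synthase, was at 42.1, 52.4 and 61.7 CPM in controls and 37.4, 42.0 and 45.7 CPM in mutants, a log2 fold change of -0.31 ± 0.10, and the groups overlapped. Sqle, squalene epoxidase, was at 36.9, 39.5 and 57.0 CPM in controls and 28.1, 32.4 and 35.3 CPM in mutants, a log2 fold change of -0.46 ± 0.12 with a 95% interval of -0.70 to -0.21, so the highest mutant lay just under the lowest control. Lss, which closes the ring to lanosterol, was at -0.16 ± 0.16.

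From lanosterol onward, Cyp51, the 14-demethylase, was at 71.3, 78.9 and 96.3 CPM in controls and 59.4, 62.4 and 70.2 CPM in mutants, a log2 fold change of -0.34 ± 0.084 with a 95% interval of -0.52 to -0.17. Msmo1, the methylsterol monooxygenase, was at 51.4, 65.3 and 80.9 CPM in controls and 42.2, 48.4 and 50.3 CPM in mutants, a log2 fold change of -0.45 ± 0.10 with a 95% interval of -0.66 to -0.24. Neither overlapped between genotypes, and together with Sqle they were 3 of the 16 genes tested whose mutants all lay below all controls (0.116%). These 3 genes also had lower mutant means outside the members. In Slc17a7 nuclei that were neither members nor upper-layer nuclei Msmo1 averaged 61.9 ± 7.05 CPM in controls and 41.6 ± 3.66 CPM in mutants (SD, n = 6), Cyp51 79.2 ± 9.94 and 58.3 ± 3.25 CPM, and Sqle 34.6 ± 5.89 and 25.8 ± 1.77 CPM. In the barcodes outside the limits on genes and mitochondrial share Msmo1 averaged 71.2 ± 15.9 and 43.5 ± 4.87 CPM, Cyp51 72.9 ± 10.2 and 51.5 ± 4.01 CPM, and Sqle 43.0 ± 5.09 and 26.03 ± 4.75 CPM. The part of RNA from outside the members in the sterol values was not tested. Sc5d was at -0.28 ± 0.10. Dhcr7 (-0.16 ± 0.11), Nsdhl (-0.21 ± 0.14) and Hsd17b7 (-0.10 ± 0.18) had unadjusted p above 0.05.

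Of the regulators, Srebf2, the transcription factor of the pathway, was at 113, 122 and 138 CPM in controls and 98.0, 109 and 135 CPM in mutants, a log2 fold change of -0.12 ± 0.080, and Insig1, which retains that factor in the endoplasmic reticulum, was at -0.43 ± 0.23. Scd2, named above and outside this list, makes monounsaturated fatty acids.

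**Figure D4:**
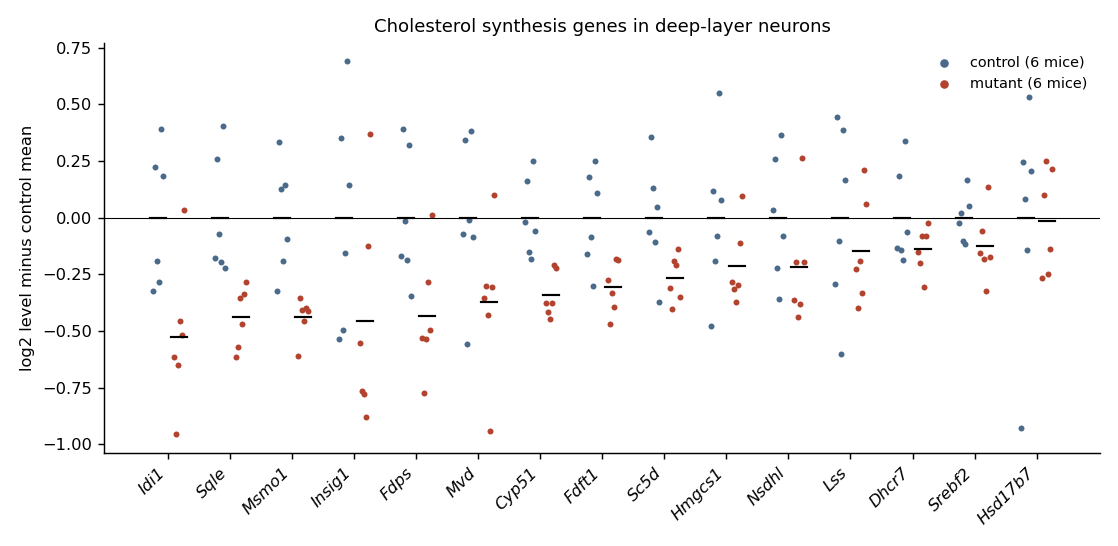
Log2 level of 15 of the 18 cholesterol synthesis genes tested in deep-layer neurons of each mouse, minus the mean of the 6 controls (controls blue, mutants red, black bars the means of 6 mice). The mutant mean is below the control mean for each gene, and for Sqle, Cyp51 and Msmo1 no mutant point reaches the control points.

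The promoters of these genes are shown because the pathway's genes are known to be driven together by SREBP2 with the CCAAT-binding factor NF-Y, and because the estimates of the list lay on one side. RefSeq windows from 250 bases before to 50 bases after the start (GRCm38.p6) were matched for 12 of the 18 genes. CCAAT, on either strand, was found in 12 of 12 (12 of their 14 windows), against 41.1% of 27025 genes with a window (37.4% of windows). TCACNCCAC, the sterol element searched on either strand, was found in 1 of the 12 and in 1.44% of all genes. The 3 windows below are on the strand of the gene, in lower case, with matches in capitals: CCAAT or its reverse complement ATTGG, and in Hmgcs1 also TCACCCCAC, which starts 137 bases before the start site.
Msmo1 (chr8:64733529-64733828, - strand): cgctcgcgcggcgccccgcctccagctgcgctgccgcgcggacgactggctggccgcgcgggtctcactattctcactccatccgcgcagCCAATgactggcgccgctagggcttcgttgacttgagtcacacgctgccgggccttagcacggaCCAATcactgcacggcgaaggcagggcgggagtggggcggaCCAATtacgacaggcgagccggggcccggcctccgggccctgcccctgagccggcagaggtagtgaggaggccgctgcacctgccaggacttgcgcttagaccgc
Cyp51 (chr5:4104648-4104947, - strand): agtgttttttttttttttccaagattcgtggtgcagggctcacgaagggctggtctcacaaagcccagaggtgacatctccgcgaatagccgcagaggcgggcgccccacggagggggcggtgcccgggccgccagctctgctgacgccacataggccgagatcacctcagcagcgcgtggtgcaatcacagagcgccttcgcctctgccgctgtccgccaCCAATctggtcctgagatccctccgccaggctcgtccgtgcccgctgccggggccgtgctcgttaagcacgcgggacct
Hmgcs1 (chr13:119690101-119690400, + strand): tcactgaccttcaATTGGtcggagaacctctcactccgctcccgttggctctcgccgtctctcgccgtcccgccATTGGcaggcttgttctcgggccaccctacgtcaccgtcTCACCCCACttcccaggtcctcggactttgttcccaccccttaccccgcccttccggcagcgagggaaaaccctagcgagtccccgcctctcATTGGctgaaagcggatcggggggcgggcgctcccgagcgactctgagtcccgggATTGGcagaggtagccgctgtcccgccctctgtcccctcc
Msmo1 holds CCAAT 3 times, starting at -160, -96 and -55, Cyp51 holds it at -29, and Hmgcs1 holds ATTGG at 4 places. The matches describe these letters in these windows and do not show a factor bound there.

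Immediate early and activity-induced genes had lower estimates for 20 of 23 tested, against 51.7% of all genes and 73.0% of genes under 10 kb. Their median log2 fold change was -0.30 (-0.084 for all genes under 10 kb), and their median span was 5.96 kb. At an unadjusted p under 0.05, 9 were lower, against 2.39% of all genes and 115 of the 3064 genes under 10 kb. No gene of the list separated the genotypes, and none passed over all genes tested. The spread among controls was wide. The median of the list was -0.16 within mice 1 to 4 (16 of 23 lower, against 49.7% of all genes and 72.7% of genes under 10 kb). It was -0.41 within mice 5 and 6 (22 of 23 lower, against 50.7% and 55.5%), a fit that held only mice 5 and 6 of each genotype, with control 6 male.

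By level in UMIs the named members were Homer1, Arc, Nr4a1 and Egr1. Arc, the cytoskeletal protein of active synapses, was at 115, 171 and 251 CPM in controls and 97.0, 131 and 179 CPM in mutants, a log2 fold change of -0.37 ± 0.17, and the transcription factor gene Egr1 at 96.8, 121 and 159.6 CPM in controls and 62.6, 103 and 124 CPM in mutants, a log2 fold change of -0.34 ± 0.15 with a 95% interval of -0.66 to -0.020. Homer1 and Nr4a1 were at -0.13 ± 0.17 and -0.071 ± 0.12. Others of the list, chosen after their values were seen, were Fos, the classic marker of recent activity, at 24.3, 34.6 and 63.8 CPM in controls and 14.7, 25.3 and 38.5 CPM in mutants (-0.50 ± 0.23 with a 95% interval of -0.98 to -0.017), Dusp1, a MAP kinase phosphatase, at 32.4, 42.7 and 75.9 CPM in controls and 20.9, 30.5 and 45.1 CPM in mutants (-0.66 ± 0.21 with a 95% interval of -1.10 to -0.22), Jun at -0.47 ± 0.15, Egr2 at -0.86 ± 0.32 and the secreted peptide precursor Vgf at -0.44 ± 0.15. Fosb and Jund made up the 9. Bdnf, Nptx2 and Inhba were the 3 with estimates at or above 0 (0.049 ± 0.14, 0.16 ± 0.20 and 0.0093 ± 0.20, SE).

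For these genes TGACGTCA, the full cAMP response element that CREB binds, was searched in the same windows, which matched 19 of the 25 genes listed. It was found in 4, Btg2, Dusp1, Maff and Scg2, against 2.03% of all genes with a window. The windows of Dusp1 and Scg2 are shown with the match in capitals, starting 143 and 68 bases before the start site.
Dusp1 (chr17:26508423-26508722, - strand): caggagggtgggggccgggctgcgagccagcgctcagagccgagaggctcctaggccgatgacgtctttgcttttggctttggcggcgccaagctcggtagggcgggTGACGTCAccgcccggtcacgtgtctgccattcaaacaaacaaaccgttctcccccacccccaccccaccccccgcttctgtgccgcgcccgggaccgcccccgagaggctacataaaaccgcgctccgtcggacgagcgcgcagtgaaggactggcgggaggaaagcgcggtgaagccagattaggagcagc
Scg2 (chr1:79439977-79440276, - strand): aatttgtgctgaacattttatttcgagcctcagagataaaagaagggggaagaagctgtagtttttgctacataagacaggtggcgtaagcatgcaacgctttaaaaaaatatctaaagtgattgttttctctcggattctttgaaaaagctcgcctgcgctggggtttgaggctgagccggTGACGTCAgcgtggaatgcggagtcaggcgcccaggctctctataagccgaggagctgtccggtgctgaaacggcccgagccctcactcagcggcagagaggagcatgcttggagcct
Scg2, a granin, was at 44.2, 61.6 and 96.5 CPM in controls and 34.3, 49.4 and 66.9 CPM in mutants, a log2 fold change of -0.43 ± 0.22, and Btg2 at -0.24 ± 0.17, so genes with the element stood on both sides of the unadjusted threshold.

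Glutamate receptor estimates lay on the other side, with 17 of 23 estimates higher, against 48.3% of all genes, and a median log2 fold change of 0.10, and their genes are long (median span 378 kb, in the class in which 22.6% of all genes were lower). The NMDA receptor subunit Grin2a was at 1377, 1492 and 1736 CPM in controls and 1608, 1696 and 2029.6 CPM in mutants, a log2 fold change of 0.20 ± 0.076. The AMPA receptor subunit Gria2 was at -0.0084 ± 0.074, Grin2b at 0.10 ± 0.084 and the metabotropic receptor Grm7 at 0.068 ± 0.11. The other 3 with an unadjusted p under 0.05 were Gria3 (0.17 ± 0.071), Grik3 (0.29 ± 0.13) and Grik5 (0.23 ± 0.11).

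Voltage-gated channels had higher estimates for 33 of 46, against 48.3% of all genes (median 0.080). Their median span was 129 kb, in the class of 50 to 200 kb in which 35.9% of all genes were lower (median 0.040). The most abundant, the potassium channel genes Kcnip4, Kcnh7, Kcnd2 and Kcnma1, were at 0.078 ± 0.079, 0.082 ± 0.11, 0.10 ± 0.10 and 0.15 ± 0.10. The 5 with an unadjusted p under 0.05 were the calcium channel genes Cacna1c (511, 627 and 667 CPM in controls, 649.9, 706 and 766 CPM in mutants, a log2 fold change of 0.22 ± 0.078) and Cacna1d (0.18 ± 0.076), the potassium channel genes Kcnq3 (0.20 ± 0.084) and Kcnn2 (0.21 ± 0.076), and the sodium channel subunit Scn4b (0.36 ± 0.16). All overlapped between genotypes.

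The other synaptic lists gave few genes at an unadjusted p under 0.05, against 2.19% of all genes on the higher and 2.39% on the lower side. Of 14 GABA receptor genes none had an unadjusted p under 0.05 (median -0.047), and Gabrb1, Gabrg3 and Gabbr2 lay between -0.0032 and 0.15. Of 24 genes of synaptic release 1 had a higher estimate (Syn3, above) and 1 a lower one at that level, Syt4 (-0.37 ± 0.11), while Syt1, Rims1, Snap25 and Rims2 were at 0.014 ± 0.080, 0.11 ± 0.092, -0.079 ± 0.081 and 0.14 ± 0.077 (SE). Of 25 neuromodulator receptor genes Htr2c (-0.32 ± 0.12), a serotonin receptor, and Adrb1 (-0.16 ± 0.068), a beta-adrenergic receptor, had lower estimates at that level, against 2.39% of all genes. The 5 neuropeptide genes tested all had lower estimates, against 51.7% of all genes and 73.0% of genes under 10 kb, and their median span was 6.80 kb. Their median log2 fold change (-0.33) was the lowest of the 21 lists and ran from -0.46 to -0.060 over the alternatives. Cck was at -0.18 ± 0.17 and Penk at -0.33 ± 0.28 (SE), and none of the 5 had an unadjusted p under 0.05.

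Stress lists gave few genes. Heat shock genes, which are short (median span 10.0 kb), had lower estimates for 9 of 10 (median -0.16), against 51.7% of all genes and 73.0% of genes under 10 kb, of which Hsp90ab1 (-0.18 ± 0.084) and Hspd1 (-0.24 ± 0.091) had an unadjusted p under 0.05, against 2.39% of all genes, and Hspa8 was at -0.33 ± 0.21. Of 16 genes of the unfolded protein response none did (median -0.14), and Hspa5, the chaperone BiP, was at 121, 179.6 and 258 CPM in controls and 94.8, 151 and 206 CPM in mutants. Of 16 hypoxia and glycolysis genes 1 did, Bnip3l (-0.19 ± 0.075), of 15 interferon and MHC class I genes 1, Tapbp (-0.55 ± 0.15), and of 16 clock genes 1, Bhlhe40 (-0.34 ± 0.16). None of 7 glucocorticoid response genes and none of 8 p53 genes did. Nuclear genes of oxidative phosphorylation (83 tested, median -0.057, median span 7.38 kb) and ribosomal proteins (92 tested, median -0.094, median span 3.72 kb) had mostly lower estimates with no gene at that level. Of all genes under 10 kb 73.0% were lower (median -0.084), so both medians lay near that of their length class. Higher estimates were found for 12 of 13 mitochondrially encoded genes (median 0.15), against 48.3% of all genes. That median ran from -0.057 to 0.36 over the alternatives.

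No gene of the mutated pathway was called. Pdgfb itself was at 8.76, 13.9 and 17.3 CPM in the lowest, median and highest control and 8.56, 13.0 and 16.4 CPM in the mutants, a log2 fold change of -0.10 ± 0.19; the ret allele alters the protein's end, and the counts do not separate the alleles. Pdgfc, Pdgfa and the receptor gene Pdgfrb were at -0.072 ± 0.14, -0.11 ± 0.12 and -0.64 ± 0.34. Genes of hereditary brain calcification and phosphate transport had no call. The phosphate exporter Xpr1 was at -0.083 ± 0.066, the phosphate importers Slc20a1 and Slc20a2 at 0.0098 ± 0.11 and 0.060 ± 0.082, and the pyrophosphate transporter gene Ank at 0.033 ± 0.086. Within 5 Mb of Pdgfb on chromosome 15, 162 of 304 genes were tested, 3 with an unadjusted p under 0.05 on the higher and 6 on the lower side, near the shares of all genes (2.19% and 2.39%), and none was called.

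Layer markers within the members were compared as well. Of 9 corticothalamic markers 1, Tle4, had an unadjusted p under 0.05 (0.23 ± 0.094), against 2.19% of all genes on the higher side. Syt6 was at 29.7, 40.8 and 51.8 CPM in controls and 28.9, 44.6 and 71.9 CPM in mutants. Of 5 layer 6b markers, Ccn2 (-0.64 ± 0.30) and Nxph4 (-0.85 ± 0.33) reached that level on the lower side, against 2.39% of all genes. The summed level of the 5 markers was 97.2 to 136 CPM in mutants and 69.3 to 310.2 CPM in controls, and the highest value belonged to control 3 alone. Of 4 near-projecting, 5 extratelencephalic and 4 intratelencephalic layer 5 markers tested none reached that level, nor did any of 6 upper-layer markers. Of 4 layer 6 intratelencephalic markers tested 1 reached it, Nr4a2 (-0.38 ± 0.14), while the 6 of the list summed to 243 to 465 CPM in mutants and 281 to 513 CPM in controls, with a lower mutant median for 4 of the 6.

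Markers of oligodendrocytes, their precursors, interneurons, microglia and endothelial cells were present in the members at a lower level than over all nuclei. The oligodendrocyte list summed to 141 to 256 CPM in mutant members and 152 to 242 CPM in control members, against 1171 to 3201 CPM over all nuclei. Interneuron markers summed to 126 to 216 and 102 to 177 CPM. Of the 5 tested Adarb2 (0.52 ± 0.17) had a higher and Slc32a1 (-0.61 ± 0.28) and Sst (-0.55 ± 0.21) a lower estimate at an unadjusted p under 0.05, against 2.19% and 2.39% of all genes. Microglial markers summed to 33.6 to 59.7 and 36.1 to 58.2 CPM, and those of oligodendrocyte precursors to 8.08 to 20.5 and 5.33 to 19.7 CPM. Astrocyte markers other than Slc1a2, which neurons also transcribe, summed to 21.4 to 43.2 CPM in mutants and 29.1 to 42.5 CPM in controls. Endothelial markers were at 1.73 to 8.93 and 2.75 to 7.53 CPM. No marker of these lists was at 0 over the members.

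Finally the genotype difference in the members was compared with that in upper-layer neurons of the same mice, with the mouse as a block. Of 13912 genes tested, none differed at an adjusted p under 0.05 in edgeR, 516 did at an unadjusted p under 0.05 (3.71%), and DESeq2 called 1. Each gene named was taken by its p, so its value is a description. The gene that DESeq2 called was Crh, the corticotropin-releasing hormone gene of some interneurons, with a difference of -3.38 ± 0.54 (log2, SE, adjusted p = 0.0583 in edgeR), on counts of 0.395 to 3.33 CPM in control members. Others on that side were Col23a1 (-0.61 ± 0.13), Necab1 (-0.42 ± 0.10), Abi3bp (-0.67 ± 0.18), Fam151b (-0.57 ± 0.15), Cntnap5a (-0.30 ± 0.079) and Nwd2 (-0.26 ± 0.070). On the other side, more positive in the members, stood Sh3pxd2b (0.66 ± 0.15), Fbxo16 (0.54 ± 0.13), Wfs1 (0.56 ± 0.14), Tbc1d1 (0.37 ± 0.094), Spred3 (0.38 ± 0.10), Pigp (0.48 ± 0.13), Pomk (0.57 ± 0.16) and Pou3f1 (0.94 ± 0.26) (log2, SE).

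Upper-layer neurons on their own gave no call among 11544 genes tested (551 at an unadjusted p under 0.05, 4.77%). Their 18 cholesterol synthesis genes also all had lower estimates in mutants, against 50.2% of all genes there, 9 at an unadjusted p under 0.05, against 2.44% in that direction, with a median of -0.35, and Msmo1 was at -0.72 ± 0.15 there. The difference between the layers was tested for each of the 18, and 1, Hmgcs1, had an unadjusted p under 0.05, against 1.96% of all genes in that direction (0.29 ± 0.13, the difference nearer 0 in the members). Of the 23 immediate early genes, 17 had lower estimates in upper-layer neurons, against 50.2% of all genes and 71.9% of genes under 10 kb there. Their median was -0.14, and none had an unadjusted p under 0.05. The difference passed that level for 1, Nr4a3 (0.39 ± 0.12). Deep-layer and upper-layer values come from the same libraries, so they are 2 readings of the same mice.

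**Figure D5:**
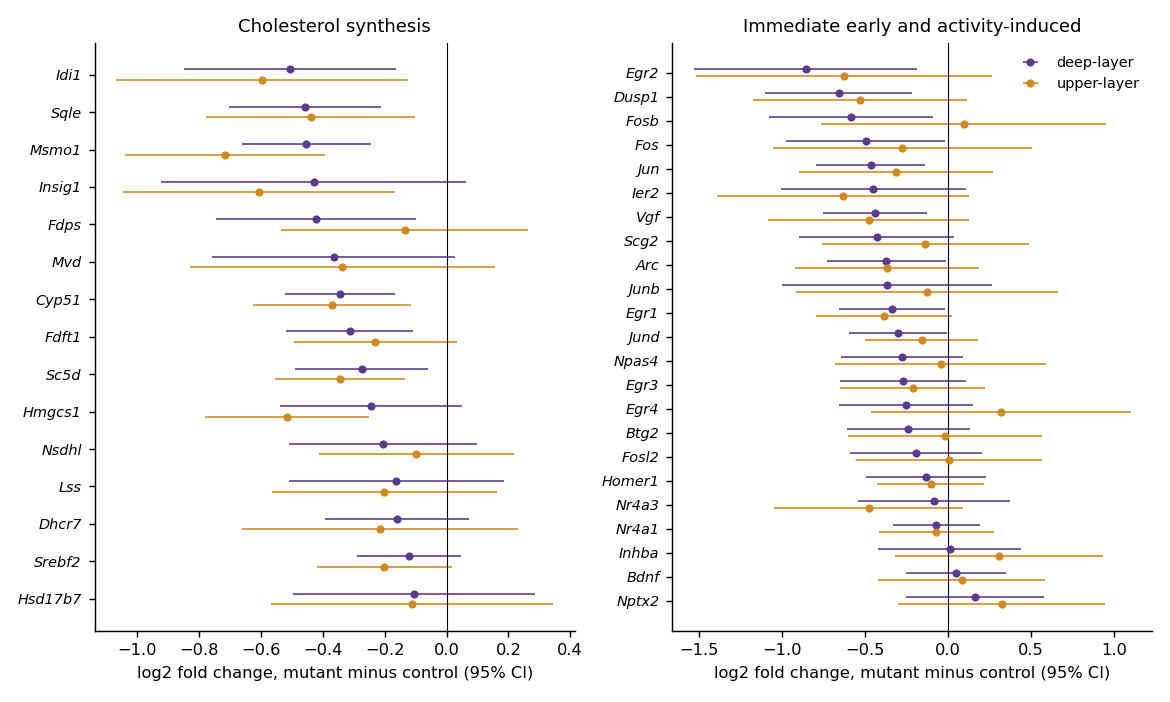
Log2 fold change (mutant minus control) with its 95% confidence interval for 15 of the 18 cholesterol synthesis genes tested (left) and the immediate early and activity-induced genes (right) in deep-layer (purple) and upper-layer neurons (orange) of the same 6 mutant and 6 control mice. The cholesterol estimates drawn lie below 0 in both layers, while the immediate early estimates lie below 0 for 20 of 23 genes in the deep and 17 of 23 in the upper layers, with wider intervals.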

How the data were processed

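Nuclei isolated from frozen cortical tissue of 12 mice were sequenced with a droplet 5′ kit. The deposited counts are UMIs per gene and barcode, made by the authors with Cell Ranger 5.0.1 (bcl2fastq 2.20.0.422, build mm10, by the submitters' processing notes), and were used as deposited. Members were chosen by the rule given above, and their counts were summed per library, which is 1 mouse. The members and gene lists were chosen with earlier results of these data known.

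Genes were filtered with filterByExpr, scaled by TMM and tested with edgeR 4.0.16 (R 4.3.3), genotype only, with Benjamini-Hochberg adjustment over all genes tested and a threshold of 0.05. DESeq2 1.42.0 was an alternative. Shares and depths were compared by exact permutation tests (scipy 1.17.1). Doublet scores came from Scrublet (scanpy 1.11.5). Its own threshold marked 0.0384 to 6.00% of nuclei per library, so in 1 alternative the highest 5% of scores were left out instead, and doublets were otherwise kept. Positions and spans came from GENCODE M21 by gene ID (32158 of 32288 matched), promoters from RefSeq. Test code was run on simulated counts with known changes, and the coverage of the intervals was not checked there.

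Named genes were all called genes and, where fewer than 10 passed in a direction, those with the smallest p up to 10 without the genes of the rule, for the interaction the 8 with the smallest p in each direction, for layers the 10 with the largest difference at 50 CPM or more, every called gene of a list, and 2 to 4 members of each list taken by level. Same-numbered mice of the 2 genotypes had the same age by label for numbers 1 to 4. Their deviations correlated at 0.068 to 0.73, and no pairing was used because number 4 lay under the 0.1 asked of every pair. With the number as a block, 1455 genes had an unadjusted p under 0.05 in edgeR, against 629 without it. Some genes that these rules select are not reported here. Deep brain libraries were left out. Intervals cover the spread between mice.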

Additional observations from a re-analysis of the deposited data

Results flagged for a closer look

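In 76 groups of 6 mice examined for 1 value far from the others, 2 stood out, no more than the rate of about 1 in 20 groups that chance alone gives. Smpd4, a sphingomyelin phosphodiesterase gene, was at 58.0 CPM in the highest mutant against 51.6 CPM in the next and 48.1 CPM in the lowest. Nwd2 was at 272 CPM in the highest mutant, 202 CPM in the next and 159.7 CPM in the lowest.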

How the results depend on the processing

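The settings without mutants 5 and 6 and control 5, with a term for mice 5 and 6, within mice 1 to 4 or 5 and 6, and within the 2 groups of nuclei by Foxp2 were added after seeing the data. No called value reversed its direction, while the median of 9 of 21 gene lists (list medians have no test) took either sign over the settings, as did Spred3 in the interaction (-0.11 with nuclei thinned to 3000 UMIs). The share of deep-layer neurons stayed short of the threshold in all settings (differences of 0.43 to 2.53 points with 1 mouse left out). The difference in median UMIs was 206 to 2714 with 1 mouse left out, and 2887.2 (p = 0.0317, exact permutation test) without mutants 5 and 6 and control 5. The 1 gene lower in mutants became 4 with DESeq2 and 2 with a term for mice 5 and 6. The number was 0 with no filter on low counts, with nuclei thinned to 3000 UMIs and at 5000 UMIs per nucleus or more. It was also 0 with no UMI of Gad or oligodendrocyte genes and without the highest doublet scores. The same held with age as a block and with a term for mice 1 to 3 against 4 to 6. It was 0 as well without mutants 5 and 6 and control 5, within mice 1 to 4 and within mice 5 and 6. In the nuclei with Foxp2 and Hs3st4 or with Hs3st4 alone it was 0 too, and leaving out 1 mouse gave 0 to 1. The cause of these changes was not tested. Leaving out the highest doublet scores took out 251 of the 6557 members. The fits with age, with the term for mice 1 to 3 against 4 to 6 or with no filter on low counts left out no mouse. Mfge8 itself ranged from -1.70 to -1.15 (log2 fold change; adjusted p 0.00015 to 1.00). The 20 genes ranked by p kept their sign in 572 of 572 values, which follows in part from that ranking, since the settings reuse the same mice. The setting of at least 50 nuclei per library, counted there, left out no library and repeats the main fit. For the interaction, no filter on low counts gave 16 genes more positive and 39 more negative in deep-layer neurons, DESeq2 gave 0 and 1, and leaving out 1 mouse 0 and 0 to 1, the 1 without mutant 5.

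Same-numbered mice had correlated deviations of 0.068 to 0.73 over 9661 genes, and 3 of 6 correlated best with their own number. With the replicate block 0 genes were higher and 1 lower (1455 at an unadjusted p under 0.05, against 629 without the block and 1190 with the age block), and the share differed by 1.52 points (p = 0.5, exact permutation test). No other call changed with the block. Precision is limited by 6 mice a group and by 154 to 343 nuclei in 9 of the 12 libraries.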
